A study of Xenopus laevis with 6 samples.

Results

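Zic, Tfap2 and Grhl proteins are transcription factors of the early vertebrate ectoderm. Zic factors are zinc-finger proteins related to the Gli mediators of Hedgehog signalling, and act in the neural plate and at its border, where neural crest forms. Tfap2 (AP-2) factors act at that border, in neural crest and in epidermis, and Grhl (grainyhead-like) factors run the genes of epithelial junctions and of the epidermal barrier. Their RNA was measured in Xenopus laevis primordial germ cells (PGCs), the germline founder cells, which lie within the vegetal endoderm of the frog embryo, and in endoderm cells of the same age.

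The 13 symbols zic1, zic2, zic4, zic5, tfap2a to tfap2e, grhl1 to grhl3 and tp63 were looked up in both deposited gene tables, which count the same libraries on different sets of gene models, v9.1 and v7.1. Of these, 10 symbols had a row: 3 in v9.1 only (zic1, tfap2e and grhl2), 4 in v7.1 only (zic2, tfap2a, tfap2c and grhl1) and 3 in both (zic4, zic5 and tfap2b). They made up 10 of the 10364 gene models of v9.1 and 9 of the 7902 of v7.1. Both tables start at a total of 150 counts per gene model over all libraries, so the missing symbols tfap2d, grhl3 and tp63 were not analysed here and cannot be read as silent. Because the libraries are the same, a gene found in both tables was measured once, and its rows are not independent. Xenopus laevis is an allotetraploid whose genes often exist as an L and an S copy, and a symbol can therefore have more than 1 gene model.

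The cells of interest were PGCs of stage 12-14 embryos, in 3 libraries, and they were set against stage-matched endoderm cells, also in 3 libraries. The labels name no genotype, strain, allele or treatment for either group. Each library came from an aliquot of rRNA-depleted RNA, and separate cell collections are not named, so p-values measure library-to-library spread, which could be technical. In bulk RNA of this kind, fewer cells of a type and less RNA per cell cannot be told apart. The series title names sox7, an endodermal Sox factor, and the comparison asks which transcripts set PGCs apart from their endodermal neighbours.

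In v9.1 the PGC libraries held 14.5 to 16.9 M counts and the endoderm libraries 9.94 to 28.3 M. Counts of 0 fell on 98 to 145 gene models per PGC library, against 35, 603 and 487 in endoderm replicates 1, 2 and 3. Among the 10 gene models described here, none was at 0 in a PGC library, while 1, 5 and 5 were at 0 in endoderm replicates 1, 2 and 3. With a start at 150 counts in total, a gene model near 0 in endoderm has a row only through its PGC reads. This holds for the listed genes below as well. The labels were checked with germline genes: all 6 gene models of the germline list were higher in PGCs, with a summed 134900 to 136500 CPM (counts per M) in PGCs and 631.3 to 684 CPM in endoderm. Of 13 endoderm gene models, 9 were lower and 3 higher in PGCs (16.8% and 12.6% over the whole table), with a summed 2833 to 3031 CPM in PGCs and 4355 to 4673 CPM in endoderm.

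Most of the Zic and Tfap2 gene models described here were higher in PGCs, as was grhl1, while 1 of the grhl2 models was lower. By edgeR's quasi-likelihood test at a Benjamini-Hochberg adjusted p under 0.05, 5 of the 10 gene models of v9.1 were higher in PGCs, against a background of 12.6% of all gene models, and 1 was lower, against 16.8%. The other 4 did not pass, and calls in either direction made up 29.3% of the table. In v7.1, 9 of the 9 gene models were higher, against a background of 12.8%, with 28.9% of the table called in either direction. The median log2 fold change of PGC over endoderm was 3.35 over the 10 gene models of v9.1 and 4.02 over the 9 of v7.1, beside 0.0696 and 0.0628 over all gene models of those tables. Every PGC library lay above every endoderm library for 8 of the 10, against 24.5% of the table, and below for 1, against 23.7%. In v7.1 the groups were apart upward for 9 of the 9, against 23.5%. Rows with few or no endoderm reads entered the tables only through PGC reads, so for them these calls and gaps were partly set by entry. The number called higher in v9.1 depended on single libraries, at 2, 2 and 3 of the 10 without PGC replicates 1, 2 and 3. Over all gene models of v9.1 the number called higher also fell in these refits, from 1301 to 911, 899 and 950. In v7.1 the number was 5 of the 9 without PGC replicate 2, and over all gene models 712 in place of 1011. With scaling that follows the expression level, 2 of the 10 in v9.1 and 6 of the 9 in v7.1 were called higher. Over all gene models that scaling called 1270 higher in v9.1 and 1049 in v7.1. With it zic4, zic5, tfap2b and tfap2e lost their calls (edgeR adjusted p between 0.0521 and 0.177).

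**Figure D1:**
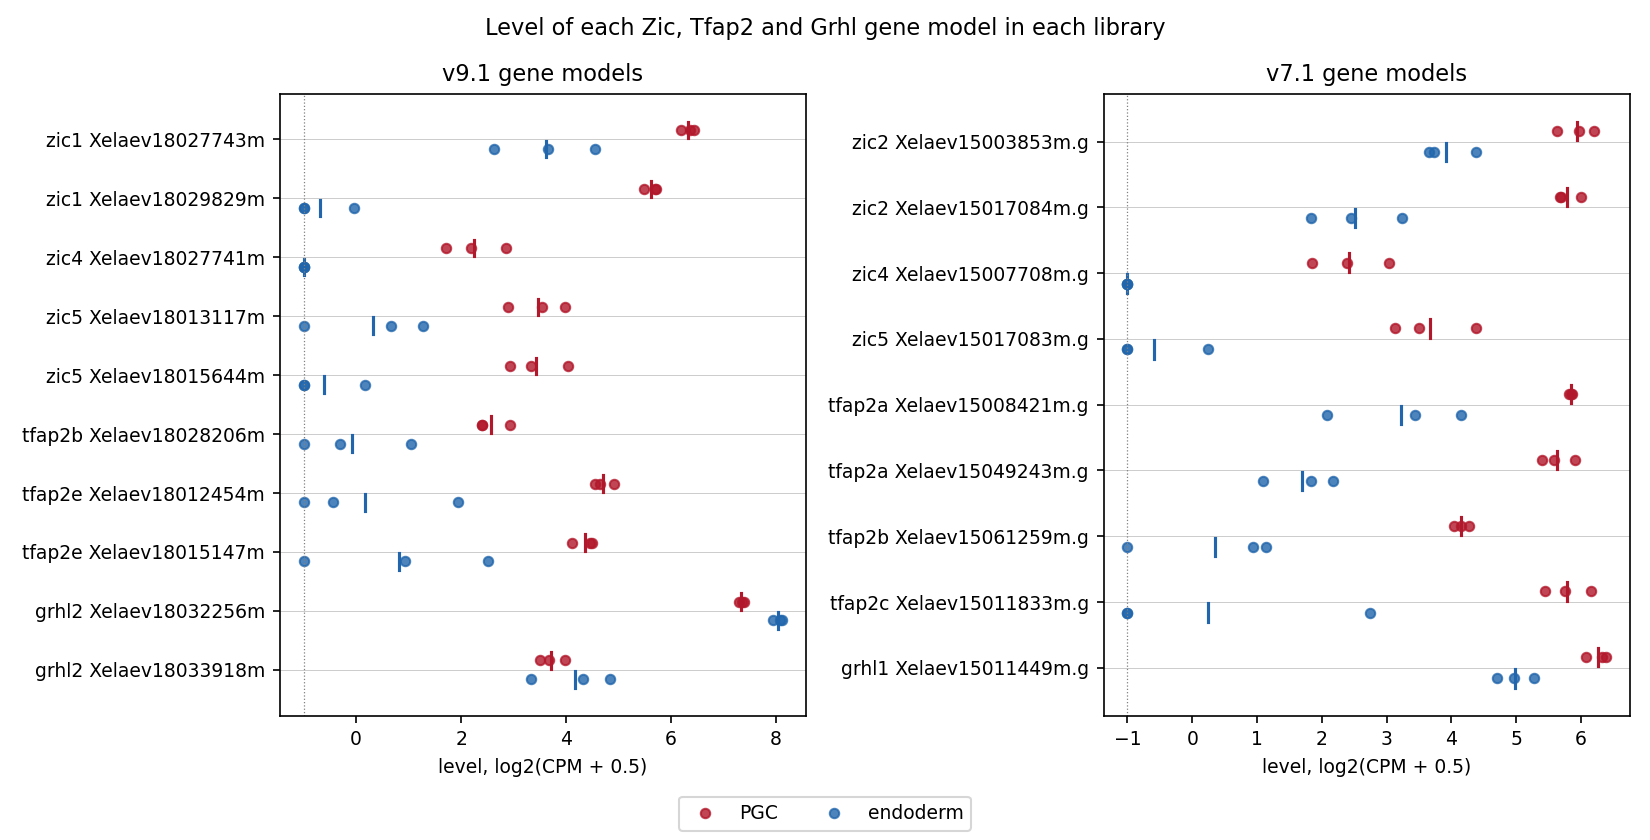
Level of each gene model in each library on a log2(CPM + 0.5) axis, with 1 point per library, a bar at each group's mean, and the PGC row drawn over the endoderm row of each gene model. PGC levels lie above all endoderm levels for the zic1, zic2, zic4, zic5, tfap2 and grhl1 models and below them for 1 grhl2 model, and the other grhl2 model overlaps.

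The zic1 gene, which in Xenopus acts with pax3 to start neural crest formation, was high in PGCs for both of its v9.1 gene models. Xelaev18029829m had 44.0, 51.9 and 51.0 CPM in PGC replicates 1, 2 and 3, against 0.467, 0 and 0 CPM in endoderm replicates 1, 2 and 3. All 3 PGC libraries were alike, and only 1 endoderm library held any read, with 12 counts. The log2 fold change was 7.89 ± 0.91 (SE; edgeR adjusted p = 3.47e-05), or 7.30 without endoderm replicate 2 and 6.36 with scaling that follows the expression level. Without endoderm replicate 1 the endoderm group was at 0, and PGCs were at least 435-fold higher against a floor of 3 counts over the endoderm group, a bound for counting error only.

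The other zic1 model, Xelaev18027743m, had 72.6, 86.5 and 81.7 CPM in PGC replicates 1, 2 and 3, against 5.72, 12.1 and 23.0 CPM in endoderm replicates 1, 2 and 3. Its endoderm level was thus not near 0 and was highest in replicate 3, still below every PGC library. It averaged 80.3 ± 7.04 CPM in PGCs and 13.6 ± 8.75 CPM in endoderm (SD, n = 3 each), a log2 fold change of 2.58 ± 0.44 (SE; edgeR adjusted p = 0.000818). Without endoderm replicate 3 the log2 fold change was 3.21. Both models stayed past the threshold under each alternative run.

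Reads of zic4, a close relative that lies beside zic1, were found in PGCs and in none of the endoderm libraries. In the RefSeq annotation of assembly Xenopus_laevis_v10.1, no protein-coding gene lies between zic4 and zic1 on either the L or the S chromosome. The v9.1 model Xelaev18027741m had 52, 67 and 110 counts in PGC replicates 1, 2 and 3, against 0, 0 and 0 counts in endoderm. PGC replicate 3 was the highest, at 6.76 CPM, and replicate 1 the lowest, at 2.76 CPM. PGCs were at least 77.7-fold higher against the 3-count floor (edgeR adjusted p = 0.0261), or at least 39.7-fold without endoderm replicate 1 and 51.1-fold without endoderm replicate 2. The v7.1 row zic4.L, with almost the same counts, gave at least 80.8-fold and an adjusted p of 0.0259 in edgeR's test, or at least 41.2-fold and 0.0542 without endoderm replicate 1 and at least 53.1-fold without endoderm replicate 2. These zic4 bounds cover counting error only. The zic4 call rests on few reads: without PGC replicate 1, 2 or 3 in turn the v9.1 adjusted p was 0.0535, 0.0669 and 0.113.

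The zic2 gene, whose maternal RNA in Xenopus restrains nodal genes, had both an L and an S row in v7.1, and both were higher in PGCs. The L copy had 62.4, 73.1 and 49.3 CPM in PGC replicates 1, 2 and 3, against 12.1, 20.5 and 12.7 CPM in endoderm replicates 1, 2 and 3. The S copy had 63.5, 51.2 and 50.7 CPM in PGCs, against 3.07, 8.98 and 5.0 CPM in endoderm. The groups did not overlap for either copy, and endoderm replicate 2 was the highest endoderm library for both. The log2 fold change was 2.03 ± 0.37 for zic2.L (SE; edgeR adjusted p = 0.00107) and 3.28 ± 0.48 for zic2.S (SE; edgeR adjusted p = 0.000173).

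The neighbour of zic2 is zic5, again with no protein-coding gene between them on the L or the S chromosome, and in Xenopus zic5 favours neural crest over epidermis. The v9.1 model Xelaev18015644m had 134, 157 and 259 counts in PGC replicates 1, 2 and 3, against 16, 0 and 0 counts in endoderm replicates 1, 2 and 3. All endoderm reads came from 1 library, and PGC replicate 3 was the highest. It averaged 10.9 ± 4.55 CPM in PGCs and 0.207 ± 0.359 CPM in endoderm (SD, n = 3 each), a log2 fold change of 5.54 ± 1.71 (SE; edgeR adjusted p = 0.0284). Without endoderm replicate 1, the only endoderm library with reads, PGCs were at least 95.2-fold higher against the 3-count floor. This bound covers counting error only, and the fit to all libraries was 46.4-fold. Without PGC replicate 1, 2 or 3 in turn the adjusted p was 0.055, 0.0727 and 0.11, and without endoderm replicate 3 it was 0.0525. The v7.1 row zic5.S had a log2 fold change of 5.67 ± 1.69 (SE; edgeR adjusted p = 0.022), which missed the threshold without PGC replicate 2 or 3 (0.0598 and 0.103).

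The other zic5 model of v9.1, Xelaev18013117m, had 209, 114 and 249 counts in PGC replicates 1, 2 and 3, against 28, 0 and 17 counts in endoderm replicates 1, 2 and 3. The groups did not overlap, but the endoderm libraries were split between some reads and none. With a log2 fold change of 3.48 ± 1.49 (SE), it did not pass edgeR's test (adjusted p = 0.103). Without endoderm replicate 3 the value was 4.31 (adjusted p = 0.0885). In the authors' deposited table, which used a likelihood ratio test, the FDR of this model was 0.0377.

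**Figure D2:**
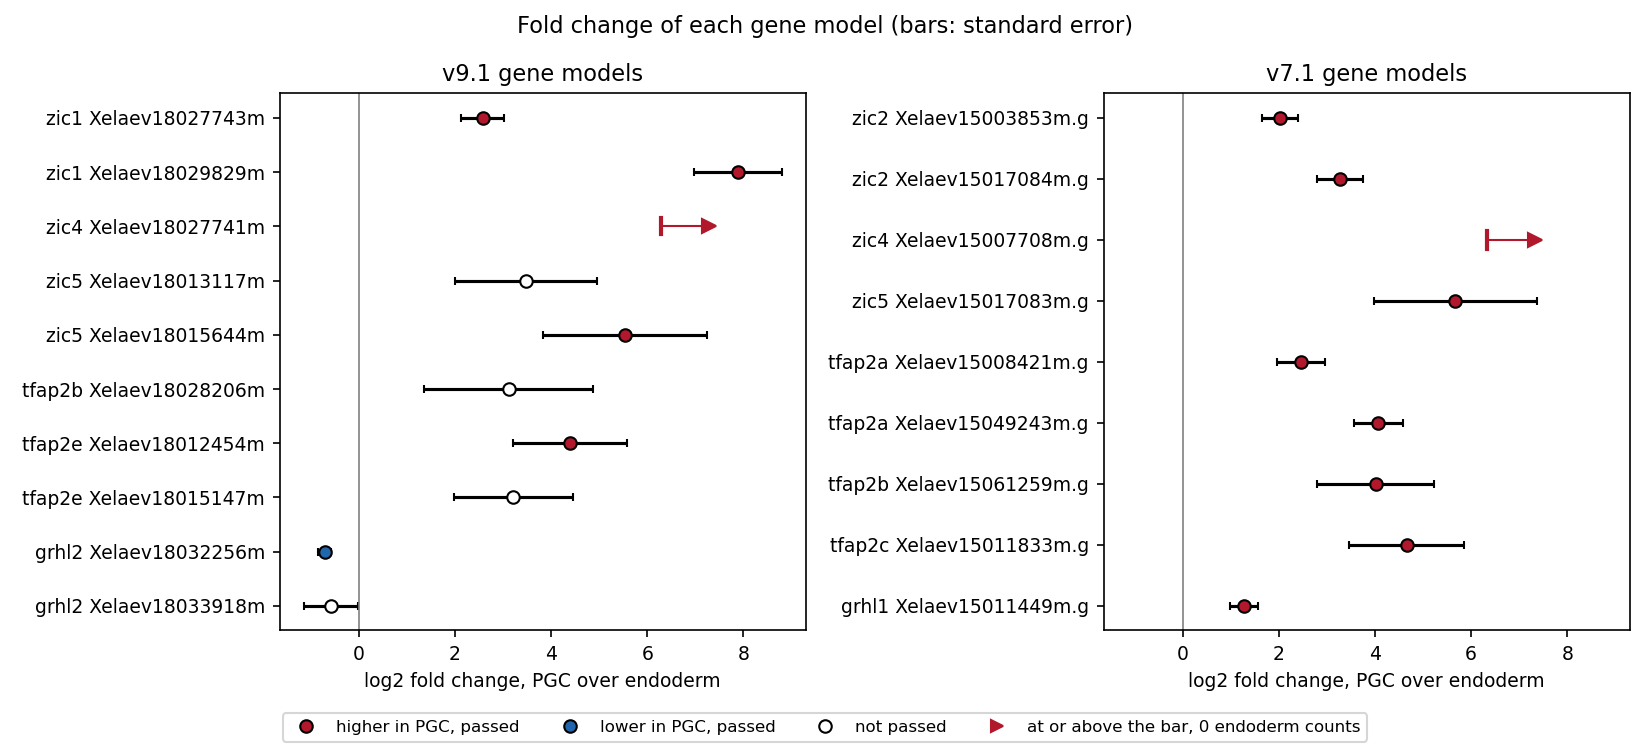
Log2 fold change of PGC over endoderm with its standard error for each gene model, with a mark for the call and the lower bound in place of the fitted value where endoderm was at 0. Both grhl2 models lie left of 0 and the other models right of it, with fitted values of up to 7.89 for zic1.

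Among the Tfap2 genes, tfap2a was higher in PGCs for both of its v7.1 rows. It activates epidermal keratin genes in Xenopus and is needed for neural crest. The row tfap2a.L had 41.8, 47.4 and 59.7 CPM in PGC replicates 1, 2 and 3, against 3.07, 4.03 and 1.62 CPM in endoderm replicates 1, 2 and 3. The row tfap2a.S had 57.7, 56.0 and 57.2 CPM in PGCs, against 10.4, 3.73 and 17.2 CPM in endoderm. The PGC libraries of the S copy were nearly equal, while its endoderm libraries ranged more widely. The log2 fold change was 4.07 ± 0.51 for tfap2a.L (SE; edgeR adjusted p = 4.11e-05) and 2.46 ± 0.51 for tfap2a.S (SE; edgeR adjusted p = 0.00235). Both calls held under each alternative run.

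The tfap2c gene, which in mouse and human is needed for the first steps of germ cell formation, was higher in PGCs with all its endoderm reads in 1 library. It had 893, 1027 and 618 counts in PGC replicates 1, 2 and 3, against 145, 0 and 0 counts in endoderm replicates 1, 2 and 3. These are 53.5, 71.2 and 43.3 CPM in PGCs, against 6.19, 0 and 0 CPM in endoderm. The groups were far apart, and the endoderm spread was set by replicate 1. The log2 fold change was 4.66 ± 1.2 (SE; edgeR adjusted p = 0.00996). Without endoderm replicate 1, the only endoderm library with reads, PGCs were at least 454-fold higher against the 3-count floor. This bound covers counting error only, and the fit to all libraries was 25.3-fold. The call was lost without PGC replicate 2 (adjusted p = 0.0706) and with DESeq2's Wald test (adjusted p = 0.112).

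The tfap2b gene, a neural crest and kidney factor in vertebrates, gave different calls in its 2 rows. The v7.1 row had 268, 250 and 268 counts in PGC replicates 1, 2 and 3, against 33, 28 and 0 counts in endoderm replicates 1, 2 and 3. It averaged 17.4 ± 1.36 CPM in PGCs and 1.04 ± 0.913 CPM in endoderm (SD, n = 3 each), a log2 fold change of 4.02 ± 1.22 (SE; edgeR adjusted p = 0.0239). That call was lost when PGC replicate 1, 2 or 3 was left out (0.072, 0.0804 and 0.0776). The v9.1 model Xelaev18028206m had fewer reads, 135, 78 and 78 counts in PGC replicates 1, 2 and 3, against 8, 28 and 0 counts in endoderm replicates 1, 2 and 3. Its groups did not overlap, but its log2 fold change of 3.12 ± 1.76 (SE) did not pass (edgeR adjusted p = 0.217). It was 4.92 without endoderm replicate 2 (adjusted p = 0.0828), and with scaling that follows the expression level its sign turned, to -1.69. The authors' likelihood ratio test gave this v9.1 model an FDR of 0.079.

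The tfap2e gene, a Tfap2 factor active in neural crest development in Xenopus, had 2 gene models in v9.1, of which 1 passed. Xelaev18012454m had 560, 404 and 371 counts in PGC replicates 1, 2 and 3, against 6, 60 and 0 counts in endoderm replicates 1, 2 and 3. Xelaev18015147m had 405, 278 and 357 counts in PGCs, against 36, 0 and 46 counts in endoderm. PGC counts were 278 or more in all libraries of both models, and the endoderm library without reads was a different one for each. The log2 fold change was 4.39 ± 1.19 for Xelaev18012454m (SE; edgeR adjusted p = 0.0143) and 3.22 ± 1.23 for Xelaev18015147m (SE; edgeR adjusted p = 0.0712). The call of Xelaev18012454m missed the threshold without endoderm replicate 1 (0.0514), without PGC replicate 1 (0.0566) or without PGC replicate 2 (0.0508), and its log2 fold change was 7.35 without endoderm replicate 2. In the authors' deposited table the FDR of Xelaev18015147m was 0.0275, and leaving out endoderm replicate 2 or 3 also brought it past the threshold in edgeR's test, at log2 fold changes of 2.67 (adjusted p = 0.022) and 4.80 (adjusted p = 0.0236).

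The Grhl genes moved less, and in both directions. The grhl1 gene, an activator of epidermal keratin in Xenopus, had 83.2, 67.2 and 79.7 CPM in PGC replicates 1, 2 and 3, against 25.5, 38.1 and 31.0 CPM in endoderm replicates 1, 2 and 3 for its v7.1 row grhl1.L. Each PGC library lay above all endoderm libraries, with a log2 fold change of 1.28 ± 0.29 (SE; edgeR adjusted p = 0.00451), and the call held under each alternative run. The grhl2 gene, which in the mouse maintains epithelial junctions and closure of the neural tube, was lower in PGCs for the v9.1 model Xelaev18032256m. That model had 163, 167 and 156 CPM in PGC replicates 1, 2 and 3, against 269, 246 and 277 CPM in endoderm replicates 1, 2 and 3. The groups were tight and apart, with a log2 fold change of -0.71 ± 0.14 (SE; edgeR adjusted p = 0.00181). With scaling that follows the expression level this value was -0.17 and missed the threshold (adjusted p = 0.392), and with total-count scaling it was -0.39 (adjusted p = 0.048). The other grhl2 model, Xelaev18033918m, had 10.8, 12.3 and 15.2 CPM in PGCs, against 19.6, 9.57 and 28.2 CPM in endoderm, so the groups overlapped (log2 fold change -0.58 ± 0.56, SE; edgeR adjusted p = 0.49). Its FDR by the authors' likelihood ratio test was 0.522.

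**Figure D3:**
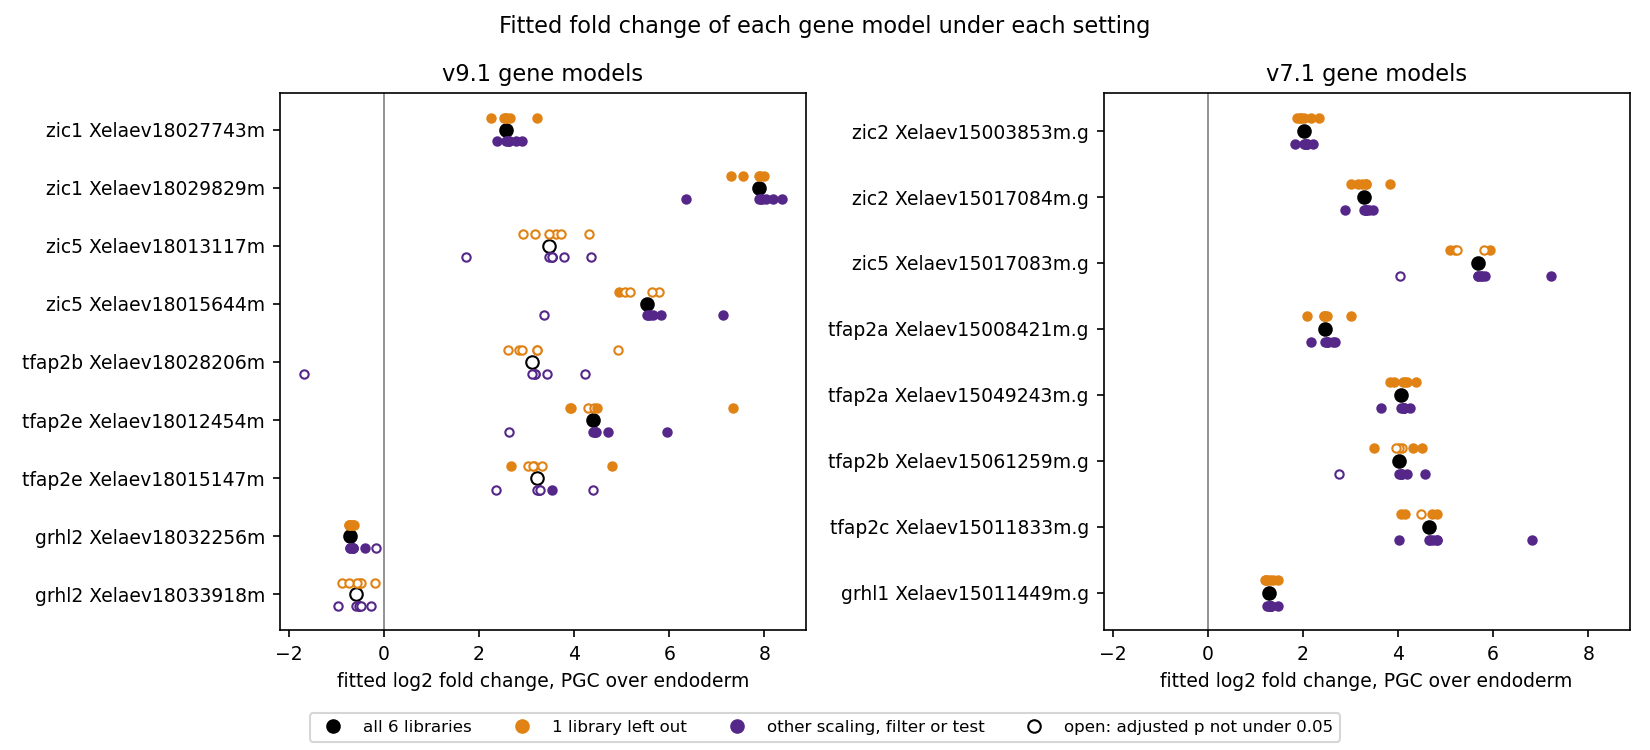
Log2 fold change of PGC over endoderm of each gene model under the reported fit and under each alternative, with 1 point per setting; zic4 and fits whose endoderm libraries were all at 0 counts are left out. The zic1 model Xelaev18027743m stays between 2.26 and 3.21, and only tfap2b in v9.1 has a point on the other side of 0 from its reported value.

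Where a symbol had 2 gene models in a table, the PGC over endoderm ratio of both was compared in 1 edgeR model with the library as a term. Over v9.1, 9.74% of 3512 such symbols differed at an adjusted p under 0.05, and over v7.1 1.47% of 1022. Of the 4 v9.1 symbols described here, zic1 differed, with a log2 ratio for Xelaev18029829m 5.42 ± 1.31 above that for Xelaev18027743m (SE; edgeR adjusted p = 0.0348). In endoderm Xelaev18027743m had reads in all 3 libraries and Xelaev18029829m in 1, and without endoderm replicate 1 Xelaev18029829m had no endoderm read, so no difference is given. The difference was 4.38 without endoderm replicate 2 (adjusted p = 0.0439), and missed the threshold without endoderm replicate 3 (4.44, adjusted p = 0.0642) and without PGC replicate 1, 2 or 3 (0.114, 0.125 and 0.0938). For grhl2 the log2 ratio of Xelaev18033918m lay 0.23 ± 0.38 from that of Xelaev18032256m (SE; edgeR adjusted p = 0.741). The zic5 and tfap2e models were compared with wider errors, at differences of 2.47 ± 2.13 for Xelaev18015644m minus Xelaev18013117m and -2.25 ± 3.01 for Xelaev18015147m minus Xelaev18012454m (SE; edgeR adjusted p = 0.523 and 0.688). In v7.1, zic2.S lay 1.35 ± 0.56 above zic2.L in log2 ratio (SE; edgeR adjusted p = 0.304) and tfap2a.L lay 1.44 ± 0.95 above tfap2a.S (SE; edgeR adjusted p = 0.526).

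The gene models whose levels ran closest to zic1 were found by the root mean square difference of log2(CPM + 0.5) over the 6 libraries, a description with no test. For Xelaev18029829m these were twist1 (0.305), a mesenchymal and neural crest factor, foxi2 (0.481), an ectodermal forkhead factor, and dmbx1 (0.552), a brain homeobox factor. Of these, twist1 Xelaev18030956m had 59.5, 45.2 and 56.5 CPM in PGC replicates 1, 2 and 3, against 0.156, 0 and 0 CPM in endoderm replicates 1, 2 and 3. For Xelaev18027743m the closest were lamp2 (0.37), a lysosomal membrane protein, ppp1r3b (0.42), a glycogen-targeting subunit of protein phosphatase 1, and eps8 (0.476), a regulator of actin.

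Other genes of the ectoderm were taken from 3 lists that hold none of the Zic, Tfap2 and Grhl gene models. The twist1 and foxi2 models named above as close to zic1 are in these lists. In v9.1 the neural plate list had 18 gene models, of which 12 were higher in PGCs, 1 was lower and 5 did not pass, with a median log2 fold change of 1.99. The neural plate border and crest list had 20, of which 9 were higher, 1 was lower and 10 did not pass, with a median of 2.35. The list of non-neural ectoderm and placode had 24, of which 5 were higher, 8 were lower and 11 did not pass, with a median of -0.00141. Over the 3 lists, 41.9% of 62 gene models were higher in PGCs, against a background of 12.6%, and 16.1% were lower, against 16.8%. In v9.1, 11 of 20 neural plate symbols, 11 of 19 border and crest symbols and 15 of 25 non-neural symbols had a row. The shares cover only those symbols. The lists were chosen with results of these data known, so these shares are a description. Without PGC replicate 1 the number higher was 16 in place of 26, and over all gene models 911 in place of 1301.

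**Figure D4:**
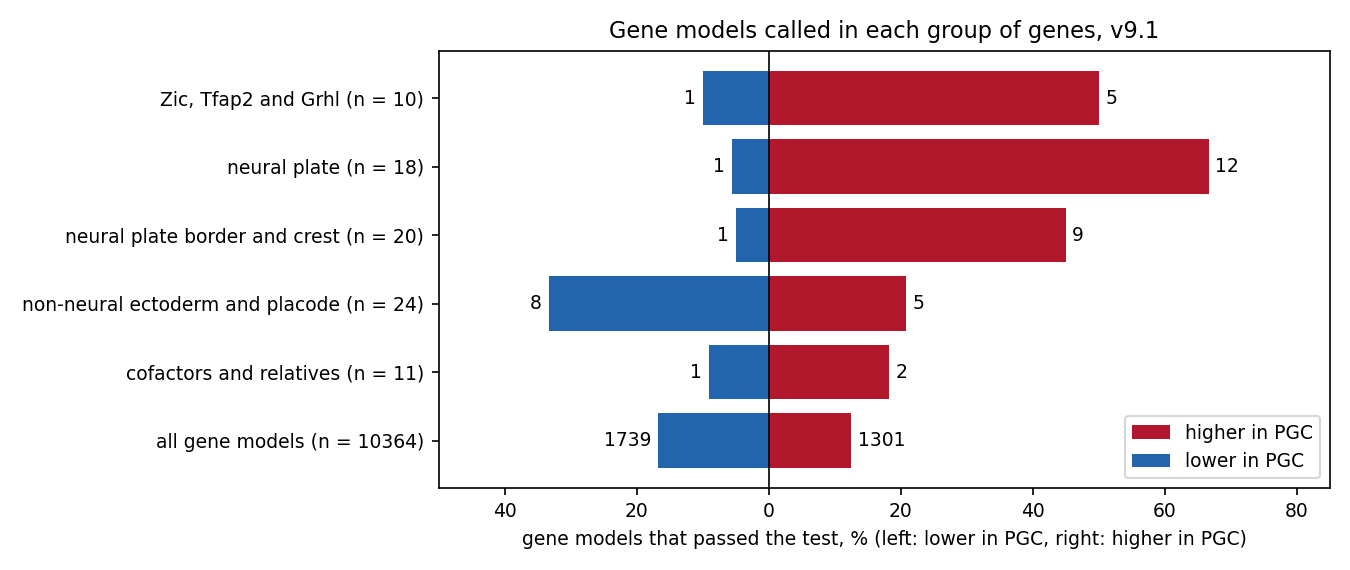
Percent of v9.1 gene models of each list called higher in PGCs (right of 0) and lower in PGCs (left of 0), with the number called at each bar and the number measured beside each name. Neural plate and border lists extend mainly to the right, with 12 and 9 higher, and the non-neural list extends to both sides, with 5 higher and 8 lower.

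In the neural plate list the largest calls were en2, pou3f1, sox2 and rax. The en2 gene, a midbrain-hindbrain homeobox factor, had 196, 60 and 82 counts in PGC replicates 1, 2 and 3, against 0, 0 and 0 counts in endoderm, at least 115-fold higher (edgeR adjusted p = 0.0122). The pou3f1 gene, a neural POU factor, had 79, 140 and 59 counts in PGCs, against 0, 0 and 0 in endoderm, at least 94.4-fold higher (edgeR adjusted p = 0.0172). The neural progenitor factor sox2 had 204, 144 and 155 counts in PGCs, against 1, 0 and 0 counts in endoderm (edgeR adjusted p = 0.00256). PGC reads were present in every library for all of these, and endoderm reads were absent or in a single library. The eye-field factor rax had a log2 fold change of 5.53 ± 1.48 (SE; edgeR adjusted p = 0.0134). Left-out libraries ended some of these calls: en2 without PGC replicate 1 (adjusted p = 0.0781), pou3f1 without PGC replicate 2 (0.0883), and rax without PGC replicate 2 or 3 (0.0699 and 0.0514). With scaling that follows the expression level en2 and pou3f1 also missed the threshold (0.111 and 0.138). Without endoderm replicate 1 the bounds were 58.5-fold for en2 and 48.1-fold for pou3f1. That library held all endoderm reads of rax, which without it was at least 152-fold higher, against a fitted 46.3-fold with all libraries. These bounds cover counting error only. The 1 neural plate model lower in PGCs was six3 Xelaev18026150m, named after its values were seen, with 29.3 ± 6.10 CPM in PGCs and 137 ± 34.4 CPM in endoderm (SD, n = 3 each).

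In the border and crest list, twist1 took the first 2 places, with log2 fold changes of 9.42 ± 0.77 for Xelaev18030956m (SE; edgeR adjusted p = 1.73e-06) and 3.69 ± 1.10 for Xelaev18033027m (SE; edgeR adjusted p = 0.0243). They were followed by the border homeobox factor dlx5, at 2.88 ± 0.91 for Xelaev18032987m (SE; edgeR adjusted p = 0.0311), and the crest factor sox8, at 2.85 ± 0.88 for Xelaev18045519m (SE; edgeR adjusted p = 0.0286). The other model of each of dlx5 and sox8 did not pass (edgeR adjusted p = 0.104 and 0.0968). The calls of twist1 Xelaev18033027m and dlx5 were lost without endoderm replicate 1 or any PGC replicate (adjusted p between 0.0523 and 0.122), and that of sox8 without PGC replicate 1 or 2 (0.121 and 0.0874). With scaling that follows the expression level all 3 missed the threshold (0.0559, 0.0772 and 0.0691), as did twist1 Xelaev18033027m with DESeq2's Wald test (0.0861). Without endoderm replicate 1, twist1 Xelaev18030956m had no endoderm read and was at least 482-fold higher in PGCs, and sox8 was at 3.49. The 482-fold bound covers counting error only. Without endoderm replicate 3, twist1 Xelaev18033027m was at 5.48 and dlx5 at 3.71 on the log2 scale. The 1 border and crest model lower in PGCs was snai1 Xelaev18046166m, named after its values were seen. It had a log2 fold change of -0.71 ± 0.12 in the reported fit (SE; edgeR adjusted p = 0.000885). In the non-neural list, foxi2 Xelaev18036872m averaged 58.1 ± 9.22 CPM in PGCs and 0.517 ± 0.800 CPM in endoderm (SD, n = 3 each), a log2 fold change of 6.57 ± 0.88 (SE; edgeR adjusted p = 0.000125), or 9.55 without endoderm replicate 1. The other foxi2 model, the Wnt target sp5 and the keratin krt12 also were higher, at log2 fold changes of 4.31 ± 1.02, 3.42 ± 0.62 and 3.25 ± 0.89 (SE), and krt12 missed the threshold without PGC replicate 3 (edgeR adjusted p = 0.0902) and with scaling that follows the expression level (0.0527). Leaving out 1 endoderm library moved each of these by over 1.5 times on the linear scale. The log2 fold changes became 5.15 and 3.96 for this foxi2 model and krt12 without replicate 2, and 4.07 for sp5 without replicate 1. Among the 8 lower gene models, bmp4 Xelaev18041226m had the largest change, at -2.42 ± 0.28 (SE; edgeR adjusted p = 3.26e-05). Also lower were cdh1 and ppl Xelaev18045604m, the latter at -2.16 ± 0.11 (SE; edgeR adjusted p = 1.57e-08). Each was named after its values were seen. The cdh1 gene, which encodes E-cadherin and is a known Grhl2 target in the mouse, had 333, 425 and 499 CPM in PGC replicates 1, 2 and 3, against 2075, 2112 and 2249 CPM in endoderm replicates 1, 2 and 3. Its log2 fold change was -2.36 ± 0.13 (SE; edgeR adjusted p = 4.08e-08), or -1.26 with scaling that follows the expression level (adjusted p = 1.66e-05). A link between cdh1 and grhl2 was not tested.

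Cofactors and relatives of these families had 11 gene models in v9.1, of which 2 were higher in PGCs, 1 was lower and 8 did not pass, with a median log2 fold change of 0.417, and 12.6% of the table was higher and 16.8% lower. In v7.1 the same list had 11, of which 1 was higher, against 12.8% of the table, 3 were lower, against 16.1%, and 7 did not pass, with a median of -0.944. The cited2 gene, which encodes a coactivator of Tfap2 proteins, had 61.7, 89.9 and 85.4 CPM in PGC replicates 1, 2 and 3, against 9.49, 8.68 and 5.44 CPM in endoderm replicates 1, 2 and 3. Every PGC library was well above endoderm, with a log2 fold change of 3.32 ± 0.35 (SE; edgeR adjusted p = 1.59e-05). Of the Gli relatives of Zic, gli2 Xelaev18046929m was higher at 1.96 ± 0.55 (SE; edgeR adjusted p = 0.018) and gli1 Xelaev18015926m was lower at -1.85 ± 0.64 (SE; edgeR adjusted p = 0.0483). The other model of each had the opposite sign and did not pass. These were gli2 Xelaev18044365m at -0.21 and gli1 Xelaev18013435m at 0.42 (edgeR adjusted p = 0.713 and 0.657). The gli2 call was lost without PGC replicate 1 or 2 (0.0679 and 0.0509), and the gli1 call without endoderm replicate 1 or 2 or PGC replicate 2 or 3 (between 0.0991 and 0.184). The gli1 call was also lost with DESeq2 size factors (0.0545), with a minimum mean of 5 CPM (0.0523) and with total-count scaling (0.102), and its log2 fold change was -2.79 without PGC replicate 1. Without endoderm replicate 1 that of gli2 was 2.57.

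Markers of other cell types were read beside these results, and some of them are rows already counted in the lists above. In v9.1 these are all 5 neural models, in the neural plate list, and the krt12, cdh1 and epcam models, in the non-neural list. Their counts are therefore not a second, separate reading. The 5 neural marker models, sox2 among them, summed to 159.1, 164.2 and 181.8 CPM in PGC replicates 1, 2 and 3, against 64.34, 53.59 and 72.24 CPM in endoderm replicates 1, 2 and 3, with 3 higher and 0 lower. The 7 models of the epidermal marker list summed to 6329, 6061 and 6755 CPM in PGCs, against 20570, 18500 and 20620 CPM in endoderm, with 1 higher and 5 lower. The 5 lower were models of krt8, cdh1 and epcam, each with a mean of at least 737.5 CPM in endoderm. This sum therefore does not single out epidermal RNA. Most of that sum was krt8, whose models Xelaev18016072m and Xelaev18013610m averaged 7001 and 9192 CPM in endoderm. The 1 higher model was the keratin krt12, with a mean of 17.3 CPM in PGCs and 1.81 CPM in endoderm. The 9 mesoderm marker models summed to 231.3, 233.1 and 177 CPM in PGCs, against 163, 152.5 and 135.2 CPM in endoderm, with 2 higher and 0 lower. No marker gene model was at 0 in all libraries of a group. Over all gene models of v9.1, 12.6% were higher and 16.8% lower. In v7.1 the called counts were 2 higher and 0 lower of 5 neural models, 1 and 5 of 7 models of the epidermal list, and 0 and 0 of 7 mesoderm models. Over all gene models of v7.1, 12.8% were higher and 16.1% lower. In v9.1 the neural and mesoderm sums were thus higher in every PGC library and the sum of the epidermal list, most of it krt8, lower. The 3 neural models called higher there were sox2, sox3.S and sox3.L. Neither ncam1 model passed, at log2 fold changes of 0.61 for Xelaev18035552m and -0.45 for Xelaev18037453m (edgeR adjusted p = 0.617 and 0.4). The 2 mesoderm models called higher in v9.1 were both pcdh8, and no t, wnt8a or myod1 model passed. In v7.1 the mesoderm sums overlapped, at 175.5, 228.8 and 144.1 CPM in PGC replicates 1, 2 and 3. Against these stood 175.4, 155.2 and 155.6 CPM in endoderm replicates 1, 2 and 3. The part of such cells in the Zic, Tfap2 and Grhl values was not tested.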

How the data were processed

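Per the labels' protocols, RNA of lysed cells was depleted of rRNA, and 3 aliquots of 1 ng per sample became ScriptSeq v2 libraries, read as 100-bp paired ends. The submitters' processing notes name edgeR 3.12.0, HTSeq 0.6.0, TopHat2 2.1.0, SAMtools 1.2 and Bowtie2 2.2.6. For genome build, settings, strand and shared reads, the entry is: not given in the sources used here. Therefore L and S copies, overlapping and antisense genes can share reads.

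The authors deposited whole-number counts per gene model in tables v9.1 and v7.1. The deposited normalized signal columns were not used. Per the file headers the authors' log2 fold change (endoderm over PGC), linear fold ratio, likelihood ratio score, p-value and FDR came from their own test, and only the FDR is quoted. Of per-sample count columns, 0 were left out.

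Counts were tested in R 4.3.3 with edgeR 4.0.16 (quasi-likelihood, TMM scaling, filterByExpr with minimum count 10 and total 15, which removed nothing, two-sided, Benjamini-Hochberg at 0.05 over each table). CPM use TMM effective library sizes, SE is the log2 fold change over the square root of F, and a bound uses 3 counts over the group at 0. Such a bound covers counting error only. Pairs of gene models needed 50 counts each, with library as a block. Alternatives were DESeq2 1.42.0 (size factors and Wald test), total-count scaling, lowess offsets (scaling that follows expression level), no filter, a mean of at least 5 CPM, the replicate block and leaving out each library; their use on the listed genes named was added after seeing the data. The fits were tested on simulated data, with 100 changes at each fold. Of 2-fold and 8-fold changes, 20 and 67 were recovered in v9.1, and 25 and 85 in v7.1. For pairs of gene models 8 and 54 were recovered in v9.1, and 4 and 49 in v7.1. A gene model or pair that did not pass can therefore still differ.

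Named genes were all rows of the families, up to 4 called gene models per list with the largest change, the 3 closest to each zic1 model, and germline and endoderm markers. The members and lists were chosen with earlier results of these data known. RefSeq symbols of Xenopus_laevis_v10.1 matched 10 of the 10 symbols and gave gene order only. Some gene models of these families and of the cofactor list are not reported here and are in none of their counts.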

Additional observations from a re-analysis of the deposited data

How the results depend on the processing

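Of 244 refits of the family gene models under alternatives, 208 kept direction and side of the threshold, 30 lost the call, 5 gained one and 1 turned sign (tfap2b of v9.1, -1.69 with lowess offsets). Refits without the low-count filter repeated the reported fit, because the filter removed nothing, so they were kept by construction. Genes with rows in both tables were counted in each. The zic1 models of v9.1 and grhl1, tfap2a and zic2 of v7.1 kept their calls throughout. Family gene models called higher in v9.1 numbered 5, against 2 with lowess offsets. They numbered 2 to 6 when 1 library was left out (2, 2 and 3 without PGC replicates 1, 2 and 3). In v7.1 they numbered 9, against 5 to 9 (5 without PGC replicate 2). Calls of higher over all gene models fell too, in v9.1 from 1301 to 911, 899 and 950 without PGC replicates 1, 2 and 3. In v7.1 they fell from 1011 to 712 without PGC replicate 2. The 1 called lower in v9.1, grhl2, became 0 with lowess offsets. Ectoderm list models called higher numbered 16 to 27 with 1 library left out, and those called lower were 5 with lowess offsets, against 10. Symbols whose 2 gene models differed numbered 1 in v9.1, zic1, against 0 to 1 with 1 library left out. In v7.1 they numbered 0, but the symbols compared there were zic2 and tfap2a, and zic1 had no row. Pair differences turned sign for grhl2 (-0.14 without endoderm replicate 2, in a range of -0.14 to 0.55 with 1 library left out) and tfap2e (1.06 without endoderm replicate 3, in a range of -4.46 to 1.06), and the fold changes of both sox17a models did with lowess offsets (0.070 and 0.29). The cause was not tested. Replicate numbers showed no shared deviation: deviations of same-numbered libraries correlated at -0.0144 to 0.012 in v9.1. This cannot exclude that the libraries were paired, on which the labels are silent. With the replicate block 4 family gene models of v9.1 and 8 of v7.1 were higher, and zic4 lost its call (adjusted p = 0.115 and 0.122), as did the listed genes en2 and pou3f1 of v9.1 (0.0611 and 0.0821). Over all gene models the replicate block called 1187 higher in v9.1, against 1301, and 957 in v7.1, against 1011. Total-count scaling called 1932 v9.1 gene models higher and 1117 lower, against 1301 and 1739, and moved the median of all gene models to 0.388, and lowess offsets gave 1270 and 1194 with a median of -0.0533. DESeq2's Wald test called 1534 v7.1 gene models higher, against 1011. The endoderm libraries limit low genes: 3 counts over that group are 0.0571 CPM in v9.1.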

Other observations

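Border genes were also counted in the v7.1 table. The pax3 gene, a partner of zic1 at the Xenopus neural plate border, had 3 rows, all higher in PGCs and named after their values were seen. The deposited names do not say whether the 3 rows are separate gene copies or parts of 1 copy. Xelaev15017553m.g had 137, 100 and 185 counts in PGC replicates 1, 2 and 3, against 0, 0 and 0 counts in endoderm, at least 148-fold higher against the 3-count floor (edgeR adjusted p = 0.00488), or at least 75.6-fold without endoderm replicate 1 and 97.4-fold without endoderm replicate 2. These pax3 bounds cover counting error only. Xelaev15017554m.g had 34.7, 24.1 and 27.2 CPM in PGCs, against 1.66, 1.22 and 0 CPM in endoderm. Its log2 fold change was 4.82 ± 0.98 (SE; edgeR adjusted p = 0.00224), or 5.45 without endoderm replicate 1. Xelaev15035368m.g had a log2 fold change of 4.73 ± 1.46 (SE; edgeR adjusted p = 0.0256), or 7.12 without endoderm replicate 1. Its call was lost without endoderm replicate 3 (0.0601) or PGC replicate 1, 2 or 3 (0.116, 0.0611 and 0.0649). Of 25 border and crest gene models in v7.1, 12 were higher, against 12.8% of the table, 2 were lower, against 16.1%, and 11 did not pass. Their median log2 fold change was 1.02. The 2 lower were ets1 Xelaev15016926m.g at -1.33 ± 0.19 and prdm1 Xelaev15067767m.g at -0.90 ± 0.14 (SE; edgeR adjusted p = 0.000152 and 0.000206). The other ets1 rows and both snai2 rows did not pass.

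The tfcp2l1 gene, a CP2-type relative of the Grhl family known from mouse pluripotent cells and kidney, was lower in PGCs for both v7.1 rows. Xelaev15016528m.g averaged 419 ± 46.1 CPM in PGCs and 1228 ± 62.0 CPM in endoderm (SD, n = 3 each; log2 fold change -1.55 ± 0.11, SE; edgeR adjusted p = 1.29e-07). Xelaev15068054m.g averaged 665 ± 55.5 CPM in PGCs and 1634 ± 96.5 CPM in endoderm (SD, n = 3 each; log2 fold change -1.30 ± 0.09, SE; edgeR adjusted p = 1.94e-07). With lowess offsets, a scaling that follows expression level, the log2 fold changes were -0.72 for Xelaev15016528m.g and -0.33 for Xelaev15068054m.g (edgeR adjusted p = 0.000207 and 0.0158).

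The 2 six3 gene models of v9.1, eye-field and forebrain factors, were called in opposite directions. Xelaev18028747m had 46.2, 44.8 and 25.3 CPM in PGC replicates 1, 2 and 3, against 0.505, 0 and 2.49 CPM in endoderm replicates 1, 2 and 3. Its log2 fold change was 5.41 ± 1.07 (SE; edgeR adjusted p = 0.00227), or 7.13 without endoderm replicate 3. Xelaev18026150m had 34.0, 22.4 and 31.4 CPM in PGCs, against 107, 175 and 130 CPM in endoderm. Its log2 fold change was -2.23 ± 0.26 (SE; edgeR adjusted p = 3.86e-05). They were noticed after their values were seen.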
